A study of Homo sapiens with 2 samples.

Results

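The peaks described here lie at an end of exactly 1 protein-coding gene and away from the ends of all other genes. A ChIP-seq peak was kept when its summit, the position of highest signal, was within 1 kb of an end of 1 protein-coding gene and not within 1 kb of an end of a gene of any other biotype, by RefSeq on GRCh38. The deposited list held 1645 peaks, of which 1564 were on chromosomes 1 to 22 and X, and 530 of those met the rule, at 523 genes. That is 33.9% of the 1564 peaks (95% Wilson interval 31.6 to 36.3%; all such intervals cover counting error only). Another 190 peaks had ends of 2 or more coding genes within 1 kb, 246 had 1 or more coding ends beside a noncoding gene, and 598 had no coding end. The rule used positions alone, so the presence of these peaks at gene ends is not a result.

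The cells were F36P, a human erythroleukaemia line, transduced with the retroviral vector MSCV-PIG alone (Vector, genotype WT) or with MSCV-PIG carrying AM-tagged ERG (AM-ERG, genotype ERG overexpression). Puromycin selection, at 1 µg/ml, lasted 4 days in both groups, and the same AM-tag antibody was used for both precipitations. The target of the antibody was thus tagged ERG made from a retroviral vector, which the Vector cells were not given, in 1 cell line. The labels list 1 library per group and there was 1 peak list, so no value below has a replicate error, the groups could not be compared, and all comparisons are between positions or genes within the list.

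ERG is a transcription factor of the ETS family, whose members share a DNA-binding domain that reads the core letters GGAA. Most ETS factors prefer C or A directly before that core, and several of them are known at the promoters of genes that are active in nearly all cells. In blood, ERG is known for its role in stem cell maintenance and in leukaemia, and red cell precursors depend on the erythropoietin receptor for survival.

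Promoters of the strongest peaks are shown as examples of the letters counted below, with and without the ETS words. Each sequence is the 120 bases directly before an annotated start of transcription, read along the gene's strand, from the RefSeq promoters of GRCh38.p14. The genes are those of highest fold enrichment whose summit lay inside the 300 listed promoter bases (250 before the start and 50 after it). ARPC3 and EPOR, whose summits lay just past that window, were added after their values were seen. The strongest set also included XRN2, whose nearest listed start lies inside the gene, and its bases are not shown. Positions, with the strand in brackets, were ARPC3 at chr12:110450338-110450457 (minus), CLTC at chr17:59619775-59619894 (plus), EPOR at chr19:11384315-11384434 (minus), ERVK3-1 at chr19:58305257-58305376 (plus), MMAA at chr4:145619265-145619384 (plus), APPL2 at chr12:105236175-105236294 (minus), HSPA9 at chr5:138575402-138575521 (minus), METTL18 at chr1:169794908-169795027 (minus) and ZNF410 at chr14:73886739-73886858 (plus). On either strand, capitals mark the long ETS word CCGGAAG, the shorter form of it, CGGAAG, the ETS word that begins with A, AGGAAG, and the word read by GATA factors, AGATAA.
ARPC3: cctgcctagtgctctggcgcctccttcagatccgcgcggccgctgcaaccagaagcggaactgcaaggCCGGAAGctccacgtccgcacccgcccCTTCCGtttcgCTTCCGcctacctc
CLTC: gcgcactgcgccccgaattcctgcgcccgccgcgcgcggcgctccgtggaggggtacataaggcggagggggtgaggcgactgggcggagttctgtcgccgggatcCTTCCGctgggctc
EPOR: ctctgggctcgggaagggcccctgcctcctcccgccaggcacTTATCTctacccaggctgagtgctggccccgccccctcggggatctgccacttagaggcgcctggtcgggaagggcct
ERVK3-1: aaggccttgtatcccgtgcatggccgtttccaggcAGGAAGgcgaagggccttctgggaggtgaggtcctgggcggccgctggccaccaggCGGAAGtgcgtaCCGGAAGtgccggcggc
MMAA: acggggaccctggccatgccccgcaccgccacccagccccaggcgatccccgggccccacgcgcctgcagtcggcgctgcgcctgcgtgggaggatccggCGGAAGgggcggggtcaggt
APPL2: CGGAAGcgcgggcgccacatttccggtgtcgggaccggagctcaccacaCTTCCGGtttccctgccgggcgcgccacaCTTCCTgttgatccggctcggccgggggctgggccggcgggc
HSPA9: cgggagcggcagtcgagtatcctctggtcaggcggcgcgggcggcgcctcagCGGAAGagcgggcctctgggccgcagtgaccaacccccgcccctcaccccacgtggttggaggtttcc
METTL18: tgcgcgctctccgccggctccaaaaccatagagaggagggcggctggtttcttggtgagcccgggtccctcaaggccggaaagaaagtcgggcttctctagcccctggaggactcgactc
ZNF410: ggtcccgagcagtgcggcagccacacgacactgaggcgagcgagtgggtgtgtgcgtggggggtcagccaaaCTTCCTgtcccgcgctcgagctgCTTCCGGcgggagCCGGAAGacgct

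ZNF410 held the 7-letter word CCGGAAG 2 times in these bases, on opposite strands, and ERVK3-1, APPL2 and ARPC3 held it 1 time each. CLTC, MMAA and HSPA9 held the shorter CGGAAG. METTL18 and EPOR held none of the 3 ETS words in the bases shown, and EPOR held the GATA word 1 time.

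The peaks were almost all at the start of their gene, although the rule treats both ends alike. The strand was read from the RefSeq promoters, which were listed for the genes of 421 of the 530 peaks. In 413 of these the end was the start (98.1%, 96.3 to 99%), and in 8 it was the stop. Among the 15812 coding genes with a listed promoter, 10349 starts and 12726 stops had no end of another gene within 1 kb. A peak lay at 388 of those starts (3.75%, 3.40 to 4.13%) and at 7 of those stops (0.0550%, 0.0266 to 0.114%). The stops were found far from the gene's end. All 270 peaks under 250 bp from it were at starts, while between 500 and 1000 bp there were 59 starts in 65 peaks (90.8%). Peaks at 1 coding end beside a noncoding gene had a similar share at starts, 178 of 182 (97.8%, 94.5 to 99.1%). Of the 183 peaks shared by exactly 2 coding genes, the nearer end was the start of both genes in 122 and the stop of both in 2. It was a start and a stop in 24, and a strand was not listed in 35.

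The 8 peaks at stops were of modest height. Their folds ran from 3.89 to 5.77, with a median of 4.29, against a median of 4.94 at starts. CTDSP1, which encodes a phosphatase acting on the tail of RNA polymerase II, had the highest, 5.77, with its summit 811 bp from the stop. TNNI3, the gene of cardiac troponin I, had 4.92 at 351 bp, and TAPBP, which encodes the MHC class I chaperone tapasin, had 4.79 at 565 bp. The others were at PRR7, RPL27A, MAP2K2, PTGES and RELA, with folds of 3.89 to 4.39.

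Summits lay most often just inside the gene. Relative to the gene's outer start, the median of the 413 summits was 132 bp into the gene, with quartiles at -42 and 235 bp. There were 291 summits (70.5%) past the start and 223 (54.0%) within 200 bp of it on either side. The bin from 100 to 199 bp into the gene held 106 peaks, against 50 in the bin before it and 54 in the bin after it. Measured from the nearest listed start, which 405 peaks had within 1 kb, the median was 99 bp. Chromatin was cut with micrococcal nuclease for 20 minutes, and the part of this in the position of the summits was not tested.

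**Figure D1:**
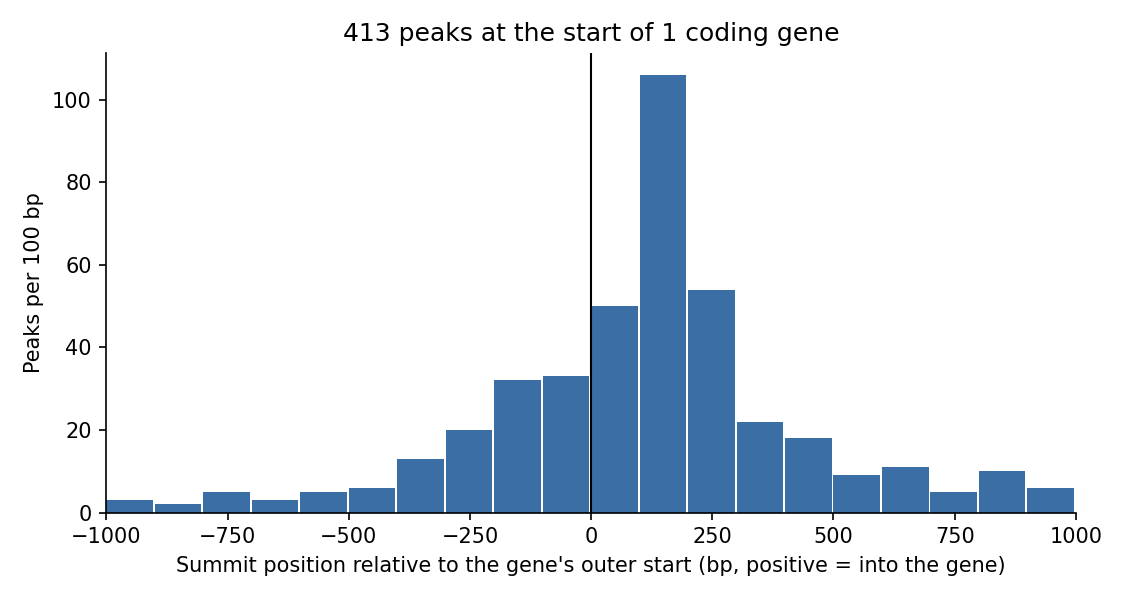
Number of peaks per 100 bp (vertical axis) by the position of the summit relative to the gene's outer start in bp (horizontal axis, positive into the gene), for the 413 peaks at starts. The tallest bar, 106 peaks, covers 100 to 199 bp into the gene.

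Fold enrichment, the authors' ratio of signal to local background at the summit, had a median of 5.17 in the 158 peaks from the start to 200 bp into the gene. It was 4.96 in the 65 peaks up to 200 bp before the start and 5.08 in the 57 peaks farther upstream. The 133 peaks over 200 bp into the gene had the lowest median, 4.42, with quartiles of 3.77 and 5.48. The quartile ranges of all 4 sets overlapped.

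At the edge of the window the rule admitted FUCA1, an alpha-fucosidase gene, at 988 bp (fold 6.16), DPF3, a subunit of BAF chromatin remodellers, at 987 bp (6.67) and ALDOA, the glycolytic aldolase A, at 985 bp (4.63). Just outside it lay peaks near LOC124901482 at 1040 bp (3.90), SPRY2, an inhibitor of growth factor signalling, at 1050 bp (4.38) and PEX2, a peroxisome assembly factor, at 1086 bp (4.63).

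In height these peaks resembled the other peaks at coding gene ends. Their median fold was 4.89 (quartiles 4.05 and 6.15, range 2.03 to 13.9). Peaks shared by 2 or more coding ends had 4.74 (quartiles 4.02 and 5.89), and those beside a noncoding gene had 4.95 (quartiles 4.03 and 6.11). Peaks away from coding ends had a median of 4.35 (quartiles 3.35 and 5.24). The median pileup recovered at the summit was 21 fragments, against 20 in both other kinds of gene-end peak, and the median width was 387.5 bp. Folds above 8 were found in 44 of the 530 (8.30%) and folds under 4 in 119 (22.5%).

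**Figure D2:**
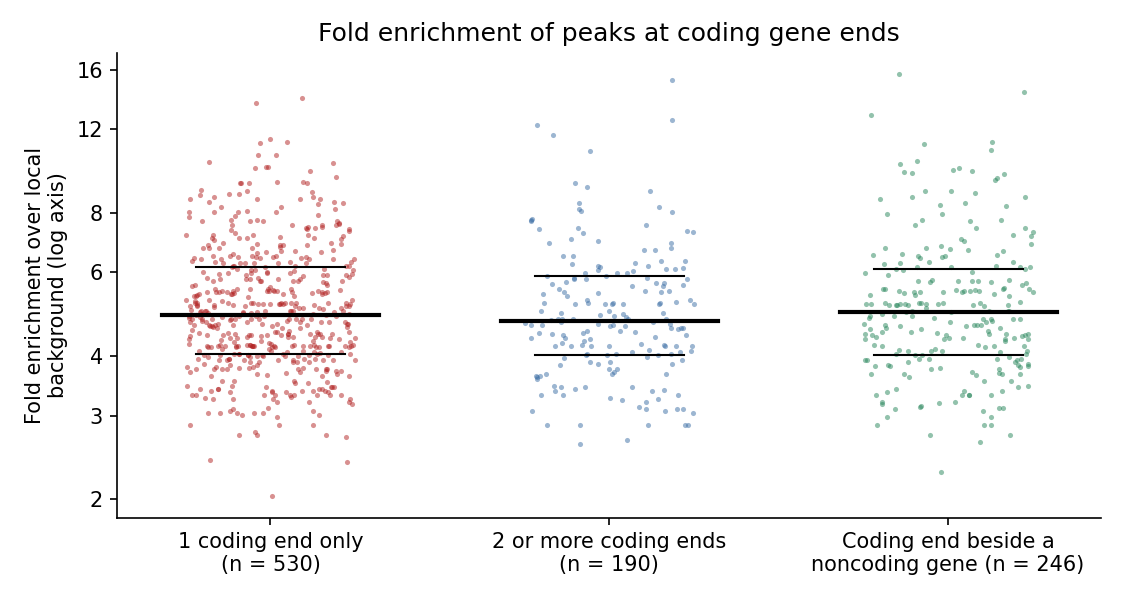
Fold enrichment over local background (vertical log axis) of the peaks at coding gene ends, in 3 kinds by the gene ends within 1 kb. Each point is 1 peak, thin bars are quartiles and thick bars are medians, 4.89 for peaks at 1 coding end only, 4.74 for 2 or more coding ends and 4.95 beside a noncoding gene.

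Few of these peaks stood on a raised local background. A background above 2 times the median of all 1564 peaks, a limit of 7.04 fragments, was found in 22 of the 530 (4.15%) and in 161 of the 598 peaks away from coding ends (26.9%). The other gene-end peaks were alike in this, with 5.26% where 2 or more coding ends were near and 6.10% beside a noncoding gene. These counts of gene-end peaks include some whose recovered background equals the limit of 7.04 after rounding. Other peaks at the limit were left out, so the counts depend on rounding in the recovery. Of the 22, 14 were on chromosome 19. Between EPOR and ZNF136 on that chromosome (11383093 to 12163506) lay 8 of the 530 peaks, at EPOR and 5 zinc finger genes, and 7 of them were on a raised background. This stretch was picked out after its values were seen. It held the highest pileup of the 530, 98 fragments at ZNF136, on a background of 21.8, which gave a fold of 4.34. It also held the lowest fold, 2.03 at ZNF627, from 41 fragments on 19.7. The part of the background in which genes were listed here was not tested. Another listed peak lay within 10 kb of 29 of the 530 (5.47%), against 7.89% and 7.32% of the other gene-end peaks and 132 of the 598 (22.1%).

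The strongest peaks were at genes of varied function. SCYL3, which encodes a pseudokinase, led with a pileup of 45 fragments on a background of 2.30, a fold of 13.9, at chromosome 1, 169893311 to 169894285. ARPC3, a subunit of the Arp2/3 complex that nucleates actin filaments, had 51 fragments on 2.82, a fold of 13.6, at chromosome 12, 110449936 to 110450450. The other members were at or below 11.5.

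HHEX, a homeobox gene of blood and endothelial progenitors, had that 11.5, at chromosome 10, 92690088 to 92690997, with its summit 700 bp into the gene. CLTC, the clathrin heavy chain gene, had 11.3 with its summit 6 bp before the start. EPOR had 11.2, from 97 fragments on a background of 7.74. TMBIM6, which encodes an inhibitor of cell death in the endoplasmic reticulum, and TINF2, a component of the shelterin complex at telomeres, both had 10.6. Among these, the summit at HHEX was the farthest from its start.

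PSMD12, a lid subunit of the proteasome, and ERVK3-1 each had a fold of 10.2, and CLPTM1 had 10.0 with its summit 475 bp into the gene. BCL2L1, which encodes the survival protein BCL-XL, had 31 fragments on 2.20, a fold of 9.99, at chromosome 20, 31723336 to 31723987. MMAA, of vitamin B12 metabolism, had 9.96 and XRN2, the nuclear exonuclease that ends transcription, had 9.81. The 20 highest were completed by APPL2 (9.51), the Integrator subunit INTS1 (9.32), the mitochondrial chaperone HSPA9 (9.30), METTL18, ZNF549 and UBLCP1 (9.25 each) and ZNF410 (9.24). All 20 were at gene starts, and 18 had their summit within 200 bp of it, the exceptions being HHEX and CLPTM1.

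The weakest after ZNF627 were at ETS2 (2.40), ACAP2 (2.42) and COMMD5 (2.70), followed by KLHDC2, ZNF622 and DOCK2, which tied at 2.73. The backgrounds at the first 4 were 9.86 to 19.7 fragments, so that pileups of 25 to 41 gave low folds. The last 3 each had 19 fragments on 6.34.

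A pair of the peaks lay at the same gene in 7 cases. EPOR had summits 59 and 883 bp into the gene, with folds of 11.2 and 4.75 on backgrounds of 7.74 and 7.85. ZNF627 had 5.50 and 2.03, F2RL3, a thrombin receptor gene, 7.01 and 3.80, and BIRC6, a large inhibitor of apoptosis, 8.02 and 2.87. ETS2, itself an ETS factor, had 3.67 at 935 bp and 2.40 at 158 bp. ZNF263 had 6.59 and 5.45, and PPP1R16B, whose strand is not listed, 6.43 and 3.36. The peak nearer to the outer start was the stronger at EPOR, F2RL3, BIRC6 and ZNF263 but not at ETS2 or ZNF627.

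Letters in the promoters were counted next, since the target of the antibody was a tagged ETS factor. The 405 peaks with a listed start within 1 kb had 401 distinct promoters, each of 300 bases, and these were compared with all 22132 RefSeq promoters of coding genes, the 401 included. Matches were counted on both strands, and a match is a description of letters and no measure of binding. The core GGAA was in 388 of the 401 (96.8%) and in 95.2% of all promoters, so it hardly separates them. The longer CCGGAAG was in 166 of the 401 (41.4%, 36.7 to 46.3%) and in 12.8% of all. CGGAAG, which CCGGAAG contains, was in 56.1% (51.2 to 60.9%) against 23.7%, and CCGGAAGT in 18.7% against 5.35%. AGGAAG, with A before the core, was in 37.7% (33.0 to 42.5%) against 33.5%, which lay within the interval. The tandem GGAAGGAA was in 5.49% (3.65 to 8.17%) against 3.68%, which also lay within the interval.

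Of the words of other factors, some were more and some less frequent at the peaks. The GC box of SP and KLF factors, GGGCGG, was in 74.6% against 56.3%. The GATA word AGATAA was in 4.49% (2.86 to 6.98%) against 7.88%, the AP-1 word TGANTCA in 2.49% against 6.15% and the TATA box TATAAA in 5.49% against 9.46%. For the RUNX word TGTGGT (8.73% against 11.3%), the E-box CAGCTG (15.0% against 18.0%), CCAAT (32.7% against 34.6%), the E-box CACGTG (9.73% against 8.34%), the NRF1 word GCGCATGC (4.74% against 3.74%), the YY1 word AAGATGG (7.48% against 6.05%) and the E2F word GGCGGGAA (4.74% against 3.99%), the value of all promoters lay inside the interval of those at the peaks. For the CRE TGACGTCA (3.99%, 2.47 to 6.38%, against 2.26%) it lay just outside.

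**Figure D3:**
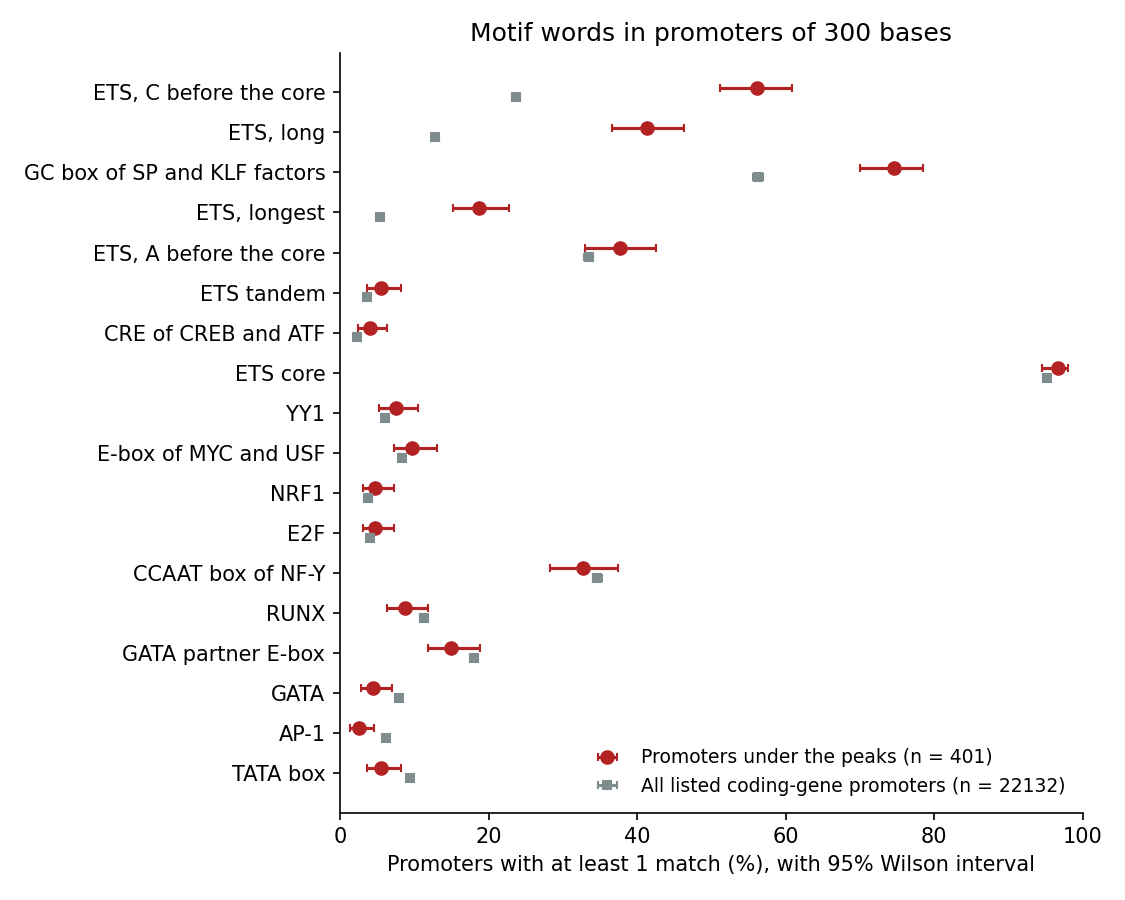
Share of promoters with at least 1 match to each of 18 words (horizontal axis, percent, with 95% Wilson intervals), for the 401 promoters at the peaks and for all 22132. The long ETS word stands at 41.4% against 12.8%, while the ETS core stands at 96.8% against 95.2%.

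When all 8192 words of 7 letters were ranked by the difference in share, a comparison added after the values were seen, CCGGAAG came first. The next were GCCGGAA (26.9% against 7.98%) and ACTTCCG (26.2% against 8.63%), which overlap it in letters or on the other strand. CCGCCGC followed (41.4% against 25.5%), then CACTTCC (27.7% against 12.4%), which holds the ETS core on the other strand.

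The promoters at the peaks were also richer in G and C, with a median of 67.0% against 62.3%, and 368 (91.8%) had a ratio of observed to expected CpG above 0.6, against 62.2% of all. Shares were therefore set side by side within ranges of GC content, also after the values were seen. CCGGAAG was in 10 of 30 promoters at the peaks with under 55% GC (33.3%, against 4.68% of all promoters in that range). From 55 to 65% GC it was in 62 of 134 (46.3% against 17.4%), from 65 to 75% in 72 of 178 (40.4% against 16.9%) and from 75% in 22 of 59 (37.3% against 11.1%). AGGAAG was higher at the peaks in all 4 ranges, with 60.0% (42.3 to 75.4%) against 37.8% under 55% GC, and with the value of all promoters inside the interval in the other 3. The GC box differed in the lowest range (46.7% against 13.9%) and was close to all promoters from 65 to 75% (83.1% against 84.3%) and above (96.6% against 96.9%). The TATA box was also close from 55 to 65% (5.97% against 6.03%), as was AGATAA (5.97% against 6.15%).

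CCGGAAG was also frequent at the other gene-end peaks. It was in 52.2% of 291 promoters at peaks with 2 or more coding ends and in 45.1% of 206 beside a noncoding gene. Promoters of genes without a peak at an end held it in 11.3% of 20745.

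The matches sat close to the start. Their median position was 31 bp before it (quartiles -68.75 and -5), against 45 bp in all promoters. From 25 to 1 bp before the start there were 14.0 matches per 100 promoters at the peaks and 3.34 per 100 of all. The 25 bp on either side of that bin held 11.5 and 11, against 2.24 and 2.23. Of the 218 matches, 114 (52.3%) were on the gene's strand. At least 2 copies were in 11% of the promoters at the peaks and in 2.29% of all. For the 166 peaks with a match, the nearest one within the listed bases was a median of 122 bp from the summit, and within 100 bp in 64 (38.6%). Letters outside those bases were not searched.

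**Figure D4:**
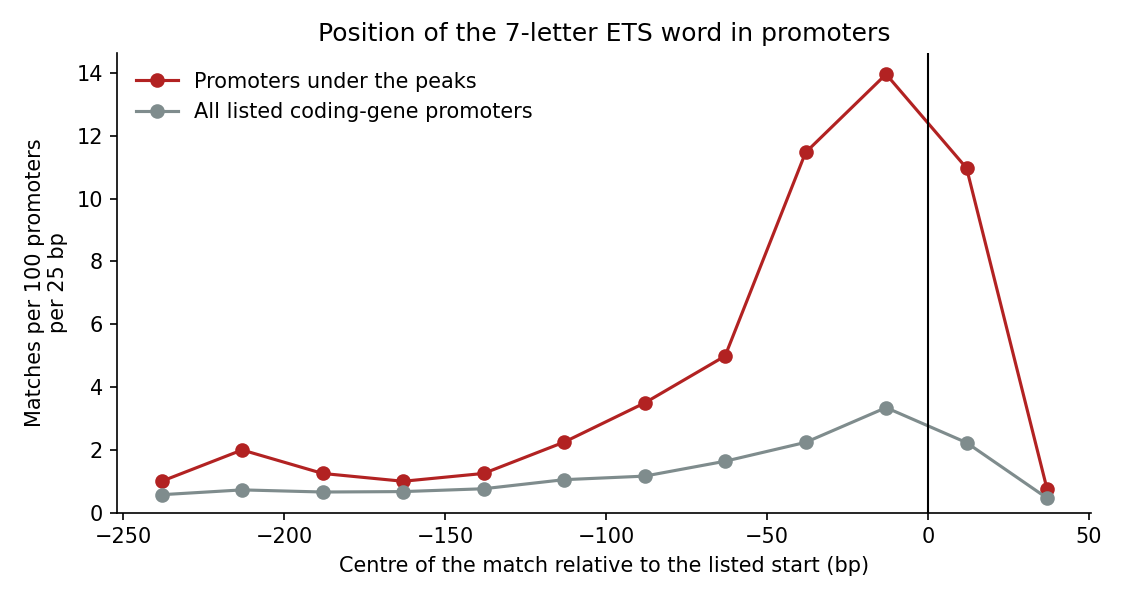
Matches to the 7-letter ETS word per 100 promoters and 25 bp (vertical axis) by the position of the match's centre relative to the listed start in bp (horizontal axis), for promoters at the peaks and all promoters. The promoters at the peaks reach 14.0 just before the start, where all promoters reach 3.34; the last bin is cut short by the end of the window.

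The share of promoters with the word differed by the position of the summit. It was in 55.8% (44.7 to 66.4%) of the 77 promoters with a summit in the 200 bp before the start and in 48.5% (41.1 to 56.0%) of the 169 with a summit in the 200 bp after it. With the summit over 200 bp upstream it was in 21.7% (13.6 to 32.8%) of 69, and over 200 bp into the gene in 28.9% (20.5 to 39.0%) of 90. Letters were counted only from 250 bases before the start to 50 after it. The bases under many of the distant summits were thus not searched, and the part of this in the shares was not tested. With the peaks split by fold into 4 sets, from lowest to highest, CCGGAAG was in 37.3, 41.6, 40.6 and 44.6%, with overlapping intervals. The median fold was 5.03 with the word and 4.80 without it. By the shorter words, it was 5.17 with CGGAAG and 4.68 without, and 5.17 with AGGAAG and 4.73 without, with overlapping quartiles.

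At least 3 copies were found at 7 peaks, which were those of ERVK3-1 (fold 10.2), ZNF384 (7.87), ATG16L1, an autophagy gene (7.17), MINDY3 (6.06), GEMIN8 (5.82), the liver X receptor gene NR1H2 (4.48, 4 copies) and PAFAH1B2 (4.39). At the other extreme 13 promoters lacked even the core GGAA. The highest folds among them were at PARK7, a gene of inherited Parkinson disease (8.56), PNRC2 (6.02) and SRP9, of the signal recognition particle (5.46). In 115 peaks the summit fell inside the listed promoter bases, and all 115 of those promoters held the core, against 95.2% of all promoters. At the 13 promoters without the core the summits lay outside the listed bases. All genes of this paragraph except ERVK3-1 and ZNF384 were named after their values were seen.

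The genes with a peak of this kind were set against lists of gene families. Over all 19974 coding genes, 523 had one (2.62%), and 1170 (5.86%) had a listed peak of any kind within 1 kb of an end. Peaks of this kind were at 7 of 35 genes of erythropoietin, JAK and STAT signalling (20.0%, 10.0 to 35.9%), and 11 of the 35 had a peak of any kind at an end. The receptor was EPOR, at 11.2. The kinase JAK2 had 3.36, from 48 fragments on a background of 13.6. SH2B3, an adaptor that restrains JAK2, had 3.73. Of the transcription factors that JAKs activate, STAT3 had 6.29 and STAT6 had 5.14. Their known target BCL2L1 had 9.99.

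Of the 27 ETS-family genes, 6 had such a peak (22.2%, 10.6 to 40.8%). ETV2, a factor of blood vessel and blood progenitors, had 22 fragments on 2.87, a fold of 5.94, with its summit 52 bp into the gene. ELK4, a partner of serum response factor, had 4.68, FEV 4.19, ETV3, a repressor, 3.94, ETS2 3.67 and ETV5 3.37. All 6 were below the 75th percentile of the 530 folds, 6.15. ERG, FLI1 and ETS1 had none, with the nearest listed peaks 9351, 9958 and 38841 bp from their ends. The count for the ETS family did not hold among peaks in the upper 50% by significance, where 1.36% of all coding genes had a peak of this kind. There it was 1 of 27 (3.70%, 0.657 to 18.3%), an interval that includes the share of all genes, and that for the signalling genes was 4 of 35 (11.4%, 4.54 to 26.0%). Without peaks on a raised background 2.52% of all coding genes had a peak of this kind. The counts were then 6 of 27 ETS-family genes (22.2%, 10.6 to 40.8%) and 5 of 35 signalling genes (14.3%, 6.26 to 29.4%).

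In lists of blood cell genes the counts were small. Among 25 stem cell transcription factors 3 had one (12%, 4.17 to 30.0%). These were HHEX, LYL1 (6.68, a partner of GATA and LMO factors) and CBFB (3.25, the common partner of RUNX factors). Of 42 erythroid genes 4 did (9.52%, 3.77 to 22.1%), namely EPOR, the corepressor CBFA2T3 (8.07), FOXO3 (4.28) and TRIM58 (3.04). Both intervals are wide and lie above the 2.62% of all coding genes. A peak of any kind at an end was found at the same 3 of 25 and at 5 of 42 (11.9%), against 5.86% of all coding genes. The interval of the 3 of 25 includes that 5.86%. Peaks at 1 coding end only were at 0 of 32 genes of heme synthesis and iron handling (upper limit 10.7%). They were at 0 of 20 megakaryocyte markers (upper limit 16.1%). Both limits include the 2.62% of all coding genes. GFI1B, NFE2 and ZFPM1 had none, with the nearest listed peaks 9774, 3518 and 4207 bp from their ends.

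Lists of markers of other cell types were too short to differ from the 2.62% of all coding genes by a count of 0. There were 0 of 20 neutrophil and monocyte, 0 of 17 T-cell, 0 of 13 B-cell, 0 of 17 neuronal and 0 of 18 hepatocyte markers, with upper limits of 16.1 to 22.8%. Endothelial markers had 3 of 25 (12%, 4.17 to 30.0%), which were the adhesion molecule genes ICAM2 (5.17) and ICAM1 (2.77, on a background of 11.3) and PLVAP (4.45). These counts say where peaks lay and give no level of expression.

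Among families made up largely of genes used by most cells, 4 had intervals above the 2.62% of all coding genes. The proteasome had 5 of 39 (12.8%, 5.60 to 26.7%), with PSMD12 at 10.2, PSMA8 at 6.16, PSMD7 at 5.94, PSMB1 at 5.24 and PSMD2 at 3.32. Translation initiation factors had 6 of 55 (10.9%, 5.10 to 21.8%), led by the start-codon factor EIF1 (8.65), with EIF2S2 at 4.72, EIF3A at 4.31 and EIF4A2 at 4.22. Cytosolic ribosomal proteins had 8 of 84 (9.52%, 4.91 to 17.7%), led by RPS19 (8.03), RPSA (7.11), RPS26 (6.27) and RPL15 (5.98). Splicing factors had 8 of 85 (9.41%, 4.85 to 17.5%), led by the core snRNP protein genes SNRPB (8.42), SNRPC (6.04) and SNRPB2 (5.53) and by HNRNPAB (5.48). Of the promoters listed near these peaks, CCGGAAG was in 3 of 4 for the proteasome, 5 of 7 for splicing factors, 2 of 7 for ribosomal proteins and 0 of 4 for initiation factors, numbers too small to compare the families.

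In other such families the interval included the 2.62% of all coding genes. Oxidative phosphorylation had 0 of 77 (upper limit 4.75%), aminoacyl-tRNA synthetases 0 of 34 (10.2%) and Mediator subunits 0 of 30 (11.4%). Mitochondrial ribosomal proteins had 1 of 77, at MRPS28 (fold 3.10, interval of the share 0.230 to 7.00%), and histones 1 of 90, at H2AJ (fold 3.93, interval 0.196 to 6.03%). A peak of any kind at an end was found at 5.86% of all coding genes. It was found at 5 of 77 oxidative phosphorylation genes (6.49%), 3 of 34 synthetases (8.82%) and 1 of 30 Mediator subunits (3.33%). Mitochondrial ribosomal proteins had 6 of 77 by this count (7.79%) and histones 6 of 90 (6.67%). Of families known for restricted expression, olfactory receptors had 0 of 392 with a peak at 1 coding end only. The upper limit of 0.970% lies below the 2.62% of all coding genes. Keratins had 0 of 55 (upper limit 6.53%), collagens 0 of 44 (8.03%) and HOX genes 0 of 39 (8.97%), limits that include it. The list of solute carriers had 2 of 351 (0.570%, 0.156 to 2.05%), an interval below it. That list is not complete, since SLC35D1 and SLC35B1, which it does not count, also had such a peak (3.41 each). The interval therefore holds for the listed genes only.

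**Figure D5:**
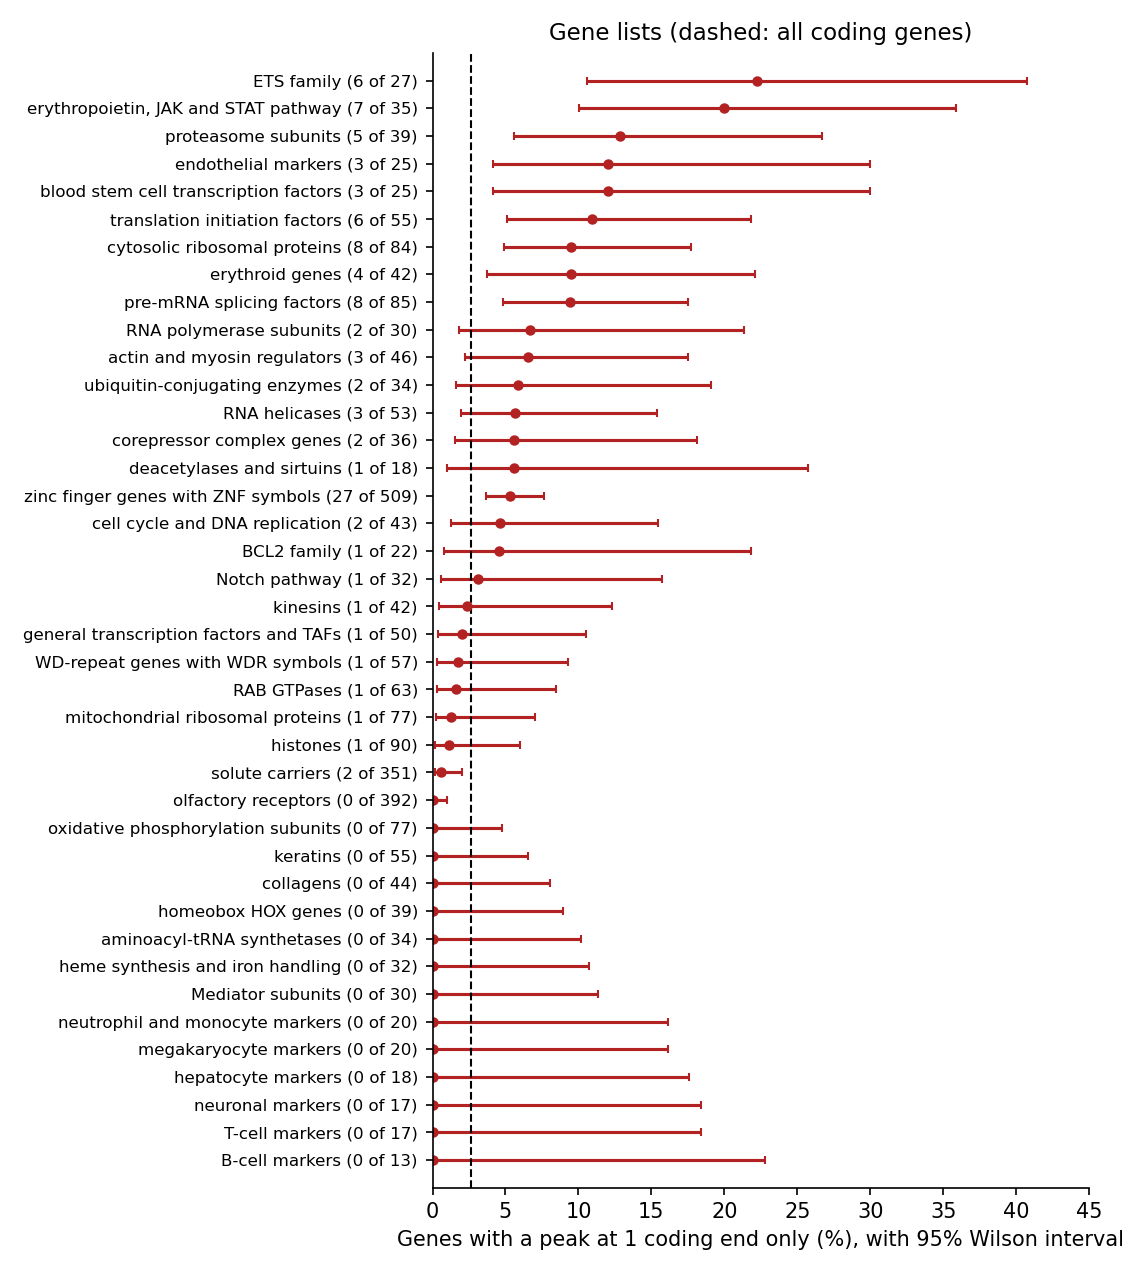
Share of the genes of each list with a peak at 1 coding end only (horizontal axis, percent, with 95% Wilson intervals), against the 2.62% of all coding genes. ETS-family genes stand at 22.2% and erythropoietin, JAK and STAT genes at 20.0%, and several lists stand at 0.

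Genes with ZNF symbols, mostly zinc finger transcription factors, had 27 of 509 (5.30%, 3.67 to 7.61%). The highest were ZNF549 and ZNF410, followed by ZNF397 (8.65) and ZNF384 (7.87). Chromosome 19 held 14 of the 27 and 246 of the 509 (48.3%), so that 5.69% of the ZNF genes there and 4.94% of those elsewhere had such a peak. A promoter was listed near the summit for 22 of them, and 14 of those held CCGGAAG.

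Of actin and myosin regulators 3 of 46 had a peak at 1 coding end only, which were ARPC3, the GTPase RAC2 (4.68) and ACTN1 (3.54). That share (6.52%, 2.24 to 17.5%) has an interval that includes the 2.62% of all coding genes. A peak of any kind at an end was found at 14 of the 46 (30.4%), against 5.86% of all coding genes. CTTN and MYL12B both had strong peaks, 169 and 160 bp from an end (15.7 and 14.4). They are counted only among the 14, because an end of the noncoding genes CTTN-DT and MYL12-AS1 lies within 1 kb. Deacetylases and sirtuins had 1 of 18 (5.56%, 0.988 to 25.8%), the histone deacetylase HDAC1 at 4.05. Corepressor complex genes had 2 of 36 (5.56%, 1.54 to 18.1%), CBFA2T3 (8.07) and RCOR1 (5.17). Cell cycle and replication genes had 2 of 43 (4.65%, 1.28 to 15.5%), the retinoblastoma relative RBL2 (7.19) and E2F2 (5.17). The Notch pathway had 1 of 32 (3.13%, 0.554 to 15.7%). This was the Notch target HES1 at 4.98, with its summit 911 bp from the gene's outer start. All of these intervals include the 2.62% of all coding genes. HDAC7 and RARA had no peak at an end, with the nearest listed peaks 284571 and 13692 bp away.

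By chromosome, the mean was 2.65 such peaks per 100 coding genes. Chromosomes 20 (4.66, exact Poisson interval 3.01 to 6.87) and 19 (4.07, 3.10 to 5.25) lay above it. Chromosomes 7 (1.28, 0.661 to 2.23), 13 (0.888, 0.183 to 2.59) and X (0.236, 0.0286 to 0.852) lay below it, with 2 peaks at the 848 coding genes of X. The genes with a peak had a median length of 26779 bp, against 24170.5 bp for all coding genes.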

How the data were processed

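ChIP-seq with an AM-tag antibody covered 2 groups of F36P cells, 1 library each, and 1 narrow peak list was analysed. Per the submitters' processing notes, Bowtie2, MACS2 and deepTools were used with hg38; the sources used here give no versions, settings or read depth, and do not say which library the list came from or whether the other was its control. The authors' values per peak are a score, a fold enrichment (ratio to local background), the −log10 p-value and q-value and the summit's offset, and the largest deposited q-value was 0.0474. Pileup and background at the summit were recovered from the deposited fold and −log10 p-value, which gave back the p-value for 100% of peaks within 0.001.

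Gene ends, strands and promoters came from RefSeq on GRCh38.p14, by gene ID. No genome sequence was used, so letters outside listed promoters were not analysed here. No test was run: shares have Wilson and densities exact Poisson intervals at 95%. There were 81 peaks on other sequences, which were left out. The recovery and the counting were checked on simulated data. Python 3.11.15, numpy 2.4.6, pandas 2.3.3, SciPy 1.17.1 and matplotlib 3.10.9 were used.

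The members, the 40 gene lists and the 18 words were chosen with earlier results of these data known. Named were the genes of the 20 highest and 5 lowest folds (with ties), up to 4 per list by fold, genes with several peaks, those at the window's edge and 18 fixed genes. Genes at stops, in the EPOR to ZNF136 stretch, PSMD2, ETV5 and SH2B3 were named after their values were seen, and 1 signalling gene is not reported here. The GATA and ETS words had been listed for searching; leading with CCGGAAG was decided after the values were seen.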

Additional observations from a re-analysis of the deposited data

How the results depend on the processing

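No paired analysis was possible because there was only 1 library for AM-ERG and 1 for Vector. Keeping the upper 50% of peaks by significance left, by construction, fewer peaks: 273 at 1 coding end, at 1.36% of coding genes. Of these 99.1% were at starts, with a median position of 115 bp, a median fold of 6.07 and CCGGAAG in 47.8% of promoters. The upper 50% by fold had, by construction, a higher median fold, 5.94. The share of promoters with an ETS match depended on the word, from 96.8% for the core to 56.1% for CGGAAG, 41.4% for CCGGAAG and 37.7% for AGGAAG. In promoters counted from 100 bases before the start the core was in 89.0% (78.4% of all promoters) and CCGGAAG in 36.2% (9.38% of all). With the summit inside the listed bases (115 promoters) the core was in 100% (95.2% of all promoters) and CCGGAAG in 55.7% (12.8% of all). Counting ends within 500 bp or 2 kb, leaving out peaks on a raised background, ignoring other biotypes or pseudogenes, and placing peaks by their midpoint changed the number of peaks by less than 1.5 times. The read depth was unknown, so how weak a site the list could hold was not analysed here.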
